A study of Mus musculus with 10 samples.

Results

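The heat shock proteins and DNAJ co-chaperones were taken as all genes of the deposited liver table whose symbol begins with Dnaja, Dnajb, Dnajc, Hsp90, Hspa, Hspb, Hspd, Hspe or Hsph, with transcripts summed by gene. This gave 73 of the 19271 genes in the table. Of these, 48 were placed in the cytosol or nucleus, 12 in the endoplasmic reticulum (ER) and 9 in the mitochondrion, from textbook knowledge of the proteins. The other 4 (Dnajc4, Dnajc18, Dnajc22 and Dnajc25) were not assigned to a compartment. The members Hspbap1, Hspbp1 and Hspb11 carry the prefix without being small heat shock proteins. The livers came from 10 mice of the C57BL6/N strain aged 2 months, with no treatment named in the labels. There were 3 males of genotype WT/WT (wild type), 3 of S400D/WT (heterozygous) and 3 of S400D/S400D (homozygous), and 1 female of S400D/S400D. S400D exchanges a serine for aspartate in HtrA2/Omi, a serine protease of the mitochondrial intermembrane space. The female has no female of another genotype beside it, so sex and genotype cannot be told apart in that animal, and its values stand beside the males without a test.

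HSP70 proteins bind exposed stretches of unfolded protein in a cycle driven by ATP. J-domain proteins (DNAJA, DNAJB and DNAJC) bring clients and start ATP hydrolysis, and nucleotide exchange factors such as the HSP110 proteins let the client go. HSP90 proteins act on clients at a later stage of folding, small heat shock proteins hold unfolding proteins without ATP, and the chaperonin Hspd1 with its lid Hspe1 encloses proteins inside the mitochondrial matrix. The cytosolic stress-inducible genes are classical targets of the transcription factor HSF1, and the ER members are targets of the unfolded protein response. The liver secretes most plasma proteins, and its ER chaperones serve that traffic.

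Htra2 itself, in which S400D is a codon change, was at 17.2, 12.3 and 12.5 CPM in wild-type males, 15.4, 16.7 and 15.6 in heterozygous males, 14.9, 15.5 and 14.5 in homozygous males and 13.8 in the female, and its groups overlapped. Each library held 16240441 to 17264289 expected counts, of which the chaperone genes took 0.523% to 0.695%. The 8 hepatocyte markers were all detected, and their summed level was 101713 to 115679 CPM (counts scaled to library size) in wild-type, 81006 to 106665 in heterozygous and 125932 to 143074 in homozygous males. The 12 macrophage markers summed to 190.2 to 600.1 CPM in wild-type, 247 to 563 in heterozygous and 522 to 557 in homozygous males, and the 5 erythroid markers to 161 to 1966, 217 to 1719 and 262 to 293. Skeletal muscle markers summed to at most 0.291 CPM. The clock gene Arntl was at 17.6, 26.0 and 38.0 CPM in the homozygous males and 31.5 in heterozygous male 2, against 1.18 to 4.22 in the other 5 males and 1.60 in the female, while Dbp was at 1.26 to 12.8 CPM in those 4 males and 104.6 to 249 in the other males and the female. The labels give no collection time, and among the males the clock genes moved with the homozygous genotype except in heterozygous male 2. The mean transcript length, weighted by TPM (transcript abundance corrected for length and library size), was 1439 to 1460 bases in homozygous males, 1307 to 1381 in wild-type and 1272 to 1365 in heterozygous males. The part of these differences in the results below was not tested beyond the fits named there. In whole liver, fewer cells of a type and less RNA per cell cannot be told apart.

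Chaperone RNA in these livers was concentrated in a few constitutive genes. On the TPM scale, which corrects for transcript length, the members summed to 4436 ± 168 in wild-type males (mean ± SD, n = 3), 3934 ± 379 in heterozygous and 4217 ± 572 in homozygous males. The 10 members with the highest levels made up 75.0% of the wild-type sum. Hspa8, the constitutive cytosolic HSP70, led with 785 ± 11.5 TPM in wild-type males, followed by the constitutive HSP90 gene Hsp90ab1 with 516 ± 10.3. The ER chaperones came next, Hspa5 (BiP, the ER HSP70) with 448 ± 49.2 and Hsp90b1 (GRP94, the ER HSP90) with 409 ± 25.2. These 2 levels overlapped between animals, with 502, 434 and 407 TPM for Hspa5 and 418, 381 and 429 for Hsp90b1. The mitochondrial Hspe1, Hspd1 and Hspa9 followed with 295 ± 8.001, 278 ± 21.6 and 234 ± 33.0, of which neighbours again overlapped. The small heat shock protein gene Hspb8, which works with the co-chaperone Bag3, was next with 162 ± 45.2, and the first J-domain gene was Dnaja1 with 106 ± 14.6.

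**Figure D1:**
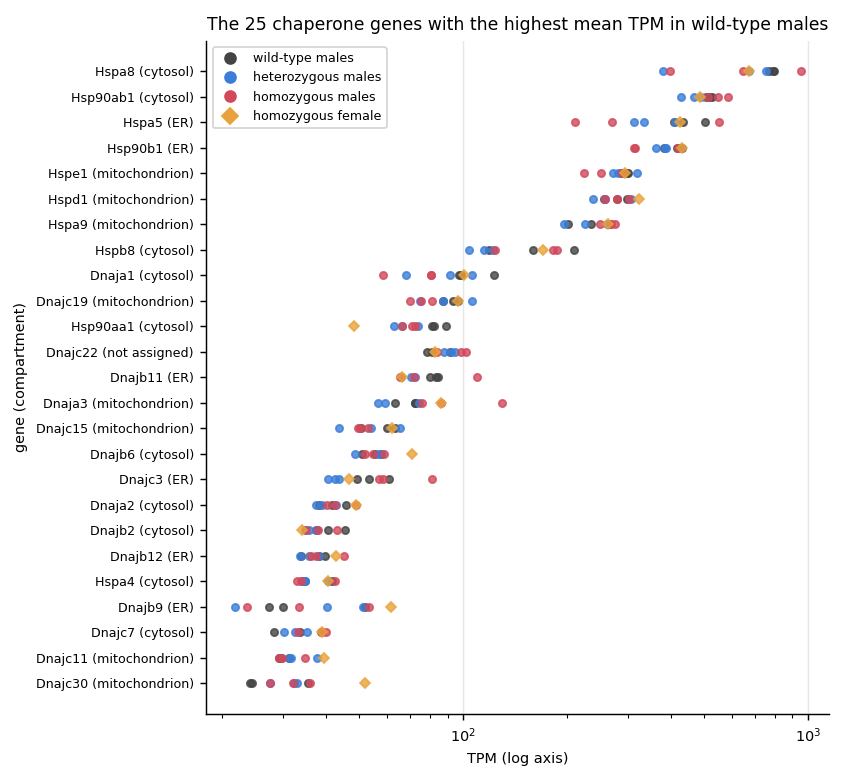
TPM (log axis) of the 25 chaperone genes with the highest mean in wild-type males, with 1 point per animal coloured by genotype. Hspa8 and Hsp90ab1 stand at the top, and the points of most genes overlap between genotypes while those of Hspa8, Hspa5 and Dnajb9 are spread widely within a genotype.

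By compartment, cytosolic members held 47.6% of the members' TPM in wild-type males, ER members 25.1% and mitochondrial members 24.5%. The corresponding sums in homozygous males were 47.8%, 22.8% and 26.2%. At the other end, 58 of the 73 members reached a mean of 1 TPM in wild-type males. The stress-inducible Hspa1a and Hspa1b, which heat or proteotoxic stress is known to induce strongly, were low, at 7.38, 4.16 and 2.46 TPM for Hspa1b in wild-type males. Of the 73 members, 62 passed the filter on low counts and entered the tests. The other 11 (Dnajb3, Dnajb7, Dnajb13, Dnajc5b, Dnajc5g, Dnajc6, Hspa1l, Hspb2, Hspb3, Hspb7 and Hspb9) had at most 7 reads in any library, and Dnajc5b, Dnajc5g and Hspb3 had 0 reads in all 10, where a count of 0 allows up to 3 counts per library. Several of these are known from testis, heart, skeletal muscle or brain.

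None of the 62 tested members passed an adjusted p of 0.05 in any comparison of the male genotypes (edgeR's quasi-likelihood test, Benjamini-Hochberg adjustment over 12427 genes). The same held for all 12427 genes, of which 0% passed in each comparison. DESeq2 called 2 members between homozygous and wild-type males, Dnaja1 and Hsp90aa1 (2.47% of all genes), 0 between heterozygous and wild-type males (0.0563%), 0 between homozygous and heterozygous males (4.38%) and Hsp90aa1 alone in the joint test of the 3 genotypes (3.92%). Its adjusted p for homozygous against wild-type males was 0.0419 for Dnaja1 and 0.0354 for Hsp90aa1. Over all the fits tried, the lowest adjusted p of any member in that comparison ranged from 0.0354 to 0.98. The values below are therefore measured levels and fold changes with their errors, given for the members with an unadjusted p under 0.05 and for the most abundant ones.

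At that unadjusted threshold, 11 members differed between homozygous and wild-type males, where 14.9% of all genes did. Of these, 8 were lower in homozygotes (8.08% of all genes) and 3 higher (6.82%). Between heterozygous and wild-type males 4 members were lower and 0 higher (4.19% of all genes in either direction, 2.52% lower and 1.67% higher). Without heterozygous male 3 none of these 4 had such a p, and Hspb1 alone did, with a positive fold change. Between homozygous and heterozygous males 5 were lower and 6 higher (17.2% in either direction, 8.92% lower and 8.25% higher), and the joint test gave 11 (14.1%). The median log2 fold change of the 62 members was -0.08, -0.08 and 0.01 in the 3 comparisons, beside 0.00, 0.01 and 0.00 over all genes. In heterozygous against wild-type males 42 of the 62 fold changes were negative, beside 48.4% of all genes, and with library size alone as the scaling 31 were, beside 31.1%. In homozygous against wild-type males 35 were negative, beside 49.3%, and in homozygous against heterozygous males 29, beside 49.6%. The comparisons with wild type share the wild-type animals. The CPM of the 3 animals per group did not overlap for 11 members that were lower and 4 higher in homozygous than wild-type males (10.6% and 10.0% of all genes), 5 and 2 in heterozygous than wild-type males (5.11% and 4.96%), and 5 and 5 in homozygous than heterozygous males (11.5% and 10.8%). Without wild-type male 3 the count for homozygous against wild-type males was 5, and it was 1, with a median of 0.01, once the ratio of Arntl to Dbp in each library (on the log2 scale, the clock index below) entered the fit. Over all genes these 2 fits gave 1378 of 12603 and 465 of 12427, and the main fit 1852.

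**Figure D2:**
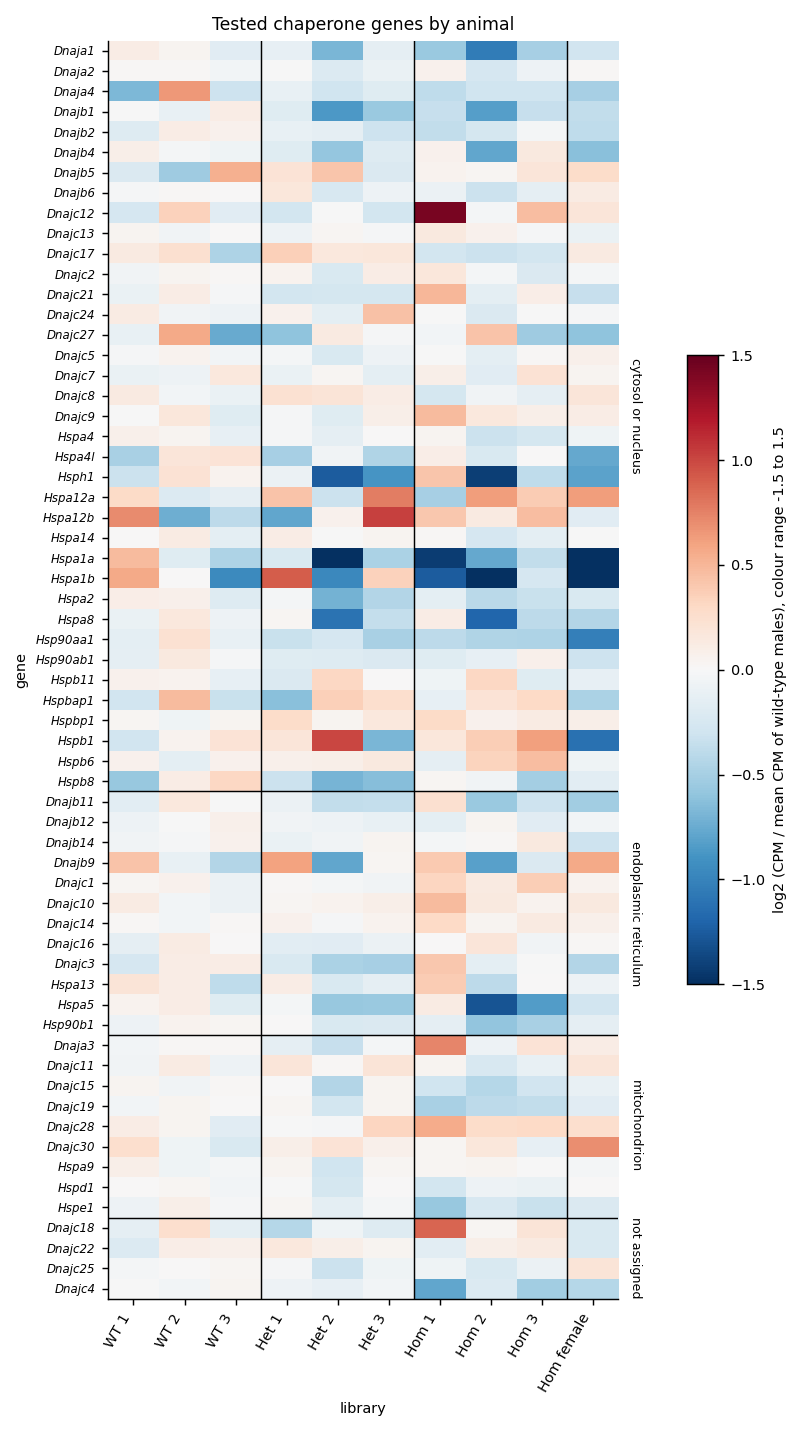
Level of each tested chaperone gene (rows, by compartment) in each library (columns) as log2 of its CPM over the wild-type mean, with values beyond -1.5 or 1.5 shown in the end colours. Heterozygous male 2 and homozygous male 2 carry the blue blocks at Hspa8, Hsph1, Dnajb1, Dnajb4, Hspa5 and Dnajb9, and homozygous male 1 the red cells at Dnajc12, Dnajc18 and Dnaja3.

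In the mitochondrion, Hspd1 (HSP60) and Hspe1 (HSP10) form the chaperonin that folds imported matrix proteins. The genes lie head to head on chromosome 1 and share the DNA between their start sites. Below is the stretch of that DNA that holds a heat shock element, the binding motif of HSF factors, at chr1:55088053-55088082 (GRCm38.p6, plus strand, RefSeq), 95 to 66 bases before the Hspe1 start. The overlapping 3-unit elements are in capitals.
Hspe1: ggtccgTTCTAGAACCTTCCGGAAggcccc
The element was searched on both strands as 3 alternating units TTC and GAA, starting with either, with NN (any bases) between units, in windows of 250 bases before to 50 bases after each start, and 4 of the 59 members with a promoter entry held it (Hspd1, Hspe1, Dnajb6 and Hsph1, in the last after the start). Among all 32851 promoter windows 0.603% held it, and by gene 0.531% of the tested genes with an entry, beside 6.78% of the members. The match describes the letters and shows no binding.

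Hspe1 was at 106, 119 and 110.3 CPM in wild-type males, 114, 101 and 109.6 in heterozygous males, 75.6, 94.7 and 88.7 in homozygous males and 96.0 in the female. Every homozygous male lay under every wild-type and heterozygous male, and the female lay just above the homozygous males. The log2 fold change was -0.38 ± 0.11 (SE, adjusted p = 0.227) in homozygous against wild-type males and -0.33 ± 0.11 (SE, adjusted p = 0.201) against heterozygous males. With a trend on transcript length removed from each library, the value against wild type was -0.22 with an unadjusted p above 0.05. In that fit the unadjusted p against heterozygotes exceeded 0.05 too. Hspe1 has a short transcript of 495 bases. Its partner Hspd1, with a transcript of 2066 bases, was at 439, 449.8 and 428 CPM in wild-type males, 436, 365 and 442 in heterozygous males, 364, 417 and 410.4 in homozygous males and 441 in the female. The homozygous males again lay under the wild-type males, by less, at a log2 fold change of -0.15 ± 0.12 (SE, adjusted p = 0.555), and the heterozygotes overlapped both.

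The CPM ratio of Hspd1 to Hspe1 was 4.16, 3.78 and 3.88 in wild-type, 3.81, 3.62 and 4.03 in heterozygous and 4.81, 4.40 and 4.63 in homozygous males, and 4.60 in the female. The 4 homozygous animals thus lay above the 6 others. On the TPM scale Hspe1 was at 298, 286 and 301 in wild-type and 224, 288 and 251 in homozygous males, and the groups overlapped. Hspd1 was at 299, 256 and 278 TPM in the same wild-type and 258, 303 and 279 in the same homozygous males. The overlap on this scale is that of Hspe1 and not of the ratio. Hspe1 has the shorter transcript (495 bases, and 2066 for Hspd1), and the 4 homozygous libraries had the longest mean transcript lengths. The part of length in the ratio was not tested. The ratio was chosen after its values were seen and is given without a test.

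**Figure D3:**
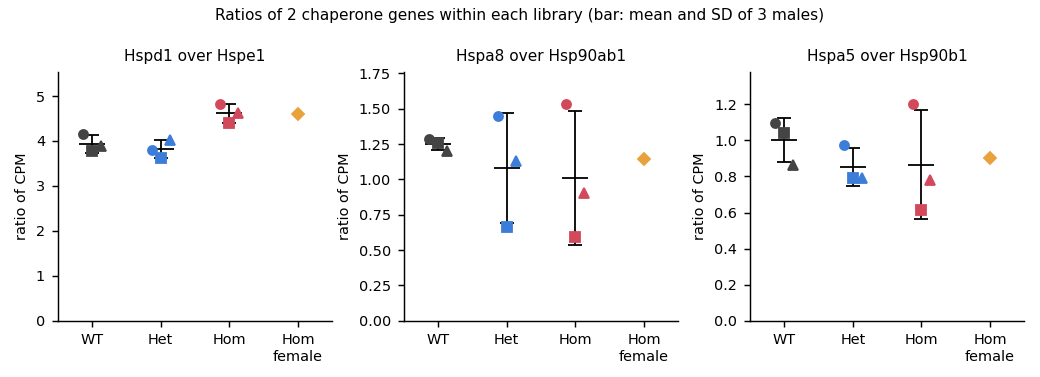
Ratio of the CPM of 2 chaperone genes within each library, for Hspd1 over Hspe1, Hspa8 over Hsp90ab1 and Hspa5 over Hsp90b1 (points: animals; bars: mean and SD of 3 males). Hspd1 over Hspe1 is above 4.4 in all homozygous animals and below 4.2 in the others, while the other 2 ratios spread widely among heterozygous and homozygous males. No length trend was removed from these ratios.

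Hspa9 (mortalin), the HSP70 that pulls proteins into the matrix, was at 526, 474 and 482 CPM in wild-type males, 510.0, 402 and 505 in heterozygous males, 506, 508 and 491 in homozygous males and 483 in the female. Its groups overlapped, and the log2 fold change was 0.01 ± 0.12 (SE, adjusted p = 0.977) in homozygous against wild-type males. Dnajc19 is the mouse counterpart of the J-domain partner of mortalin at the import channel, and Dnajc15 is its paralog. Dnajc19 was at 31.3, 33.0 and 32.2 CPM in wild-type males, 32.9, 26.6 and 33.2 in heterozygous males, 22.9, 24.6 and 25.0 in homozygous males and 28.6 in the female. Each homozygous male was below each other male, with -0.42 ± 0.11 (SE, adjusted p = 0.194) against wild type and -0.36 ± 0.11 (SE, adjusted p = 0.160) against heterozygotes. The first of these adjusted values is the lowest of any member in that comparison. Dnajc15 was at 17.0, 15.9 and 16.7 CPM in wild-type males, 16.7, 12.2 and 17.1 in heterozygous males, 13.5, 12.3 and 13.5 in homozygous males and 15.3 in the female. Homozygous males lay under the wild-type males, while heterozygous male 2 lay just below them, and the log2 fold change was -0.35 ± 0.13 (SE, adjusted p = 0.285). These 2 genes are also short, at 460 and 375 bases, and with the length trend removed their values against wild type were -0.25 and -0.17, the second with an unadjusted p above 0.05. In the same fit the unadjusted p of Dnajc19 against heterozygotes exceeded 0.05.

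The other mitochondrial J-domain genes went both ways. Dnaja3 (Tid1), the J-domain protein that delivers clients to mortalin in the matrix, was at 117, 123 and 123 CPM in wild-type males, 110.4, 95.3 and 119 in heterozygous males, 201, 115 and 139 in homozygous males and 130.2 in the female. Homozygous male 1 stood far above the rest, and the log2 fold change against heterozygotes of 0.48 ± 0.18 (SE, adjusted p = 0.230) was 0.24 to 0.65 when single animals were left out, the lowest without homozygous male 1. Dnajc28 was at 11.9, 11.4 and 9.84 CPM in wild-type males, 11.04, 10.9 and 13.8 in heterozygous males, 16.3, 13.4 and 13.6 in homozygous males and 13.1 in the female. Homozygous males were above the wild-type males with a log2 fold change of 0.37 ± 0.14 (SE, adjusted p = 0.279), and overlapped the heterozygotes. Dnajc11, which associates with the MICOS complex of the cristae, was at 60.4, 68.3 and 59.7 CPM in wild-type males, 71.1, 63.4 and 71.6 in heterozygous males, 64.8, 53.2 and 58.0 in homozygous males and 71.0 in the female. Its homozygous and heterozygous males overlapped by 1 animal, and the log2 fold change was -0.23 ± 0.10 (SE, adjusted p = 0.291). For the last member of the compartment, Dnajc30, the fold changes lay between -0.10 and 0.12.

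Among the partners of the mitochondrial chaperones, a list of 11 genes for exchange factors, import motor subunits and matrix proteases, 0 were lower and 2 higher at an unadjusted p under 0.05 in homozygous against wild-type males, beside 8.08% and 6.82% of all genes. The list's median log2 fold change was -0.06, beside 0.00 over all genes. Clpx, the unfoldase of the ClpXP protease, was at 143, 122 and 142 CPM in wild-type males, 62.6, 284 and 169 in heterozygous males, 322, 429 and 517 in homozygous males and 117 in the female. All homozygous males were above all other males, with a log2 fold change of 1.63 ± 0.44 (SE, adjusted p = 0.206) against wild type, and the homozygous female was below the wild-type males. The highest of the other males was heterozygous male 2, which has the clock state of the homozygous males. The part of the clock state in the level of Clpx was not tested. Grpel2, an exchange factor of mortalin, was at 38.2, 31.6 and 44.7 CPM in wild-type males, 31.5, 34.8 and 39.1 in heterozygous males, 63.3, 55.4 and 42.0 in homozygous males and 61.1 in the female. It had a log2 fold change of 0.48 ± 0.17 (SE, adjusted p = 0.272), and the groups overlapped. Against heterozygotes the same 2 genes were higher (8.25% of all genes), and in heterozygous against wild-type males 0 of the 11 had such a p (4.19% of all genes).

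In the cytosol, Hspa8 was at 1034, 1229 and 1052 CPM in wild-type males, 1128, 514 and 861 in heterozygous males, 1191, 485 and 843 in homozygous males and 817 in the female. Wild-type males lay close together, whereas heterozygous male 2 and homozygous male 2 were at the bottom and the males numbered 1 of both genotypes at the wild-type level. This gave a log2 fold change of -0.41 ± 0.34 (SE, adjusted p = 0.580) in homozygous and -0.41 ± 0.34 (SE, adjusted p = 0.972) in heterozygous against wild-type males. Hsp90ab1 showed no such spread, at 804, 977 and 876 CPM in wild-type males, 781, 772 and 763 in heterozygous males, 778, 815 and 931 in homozygous males and 716 in the female. Heterozygous males were under the wild-type males, with a log2 fold change of -0.21 ± 0.13 (SE, adjusted p = 0.972), and homozygous males overlapped both.

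Hsp90aa1, the stress-inducible cytosolic HSP90, was at 151, 196 and 155 CPM in wild-type males, 133, 141 and 119.5 in heterozygous males, 128, 122 and 122 in homozygous males and 82.3 in the female. All 6 males that carry S400D were below the 3 wild-type males, and the female was the lowest of all animals. The log2 fold change was -0.44 ± 0.12 (SE, adjusted p = 0.206) in homozygous and -0.36 ± 0.12 (SE, adjusted p = 0.972) in heterozygous against wild-type males. Homozygous and heterozygous males differed by -0.08 ± 0.12 and overlapped. With the clock index as a covariate Hsp90aa1 was the only member with an unadjusted p under 0.05 in homozygous against wild-type males, at -0.53.

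Dnaja1, the main cytosolic DNAJA partner of HSP70, was at 272, 261 and 225 CPM in wild-type males, 232, 158 and 229.9 in heterozygous males, 171, 122 and 179 in homozygous males and 208 in the female. Homozygous males were below all wild-type males, and heterozygous male 2 shared their level while the other 2 heterozygotes shared that of the wild type. On the log2 scale the change was -0.69 ± 0.19 (SE, adjusted p = 0.207) in homozygous and -0.30 ± 0.19 (SE, adjusted p = 0.972) in heterozygous against wild-type males, and with the clock index as a covariate the first was -0.38 with an unadjusted p above 0.05. Its promoter entry holds a 2-unit heat shock element (GAA and TTC in either order with NN between, both strands), shown in capitals at chr4:40722333-40722362 (GRCm38.p6, plus strand, RefSeq), 135 to 106 bases before a start, because Dnaja1 had the lowest fold change among the members with an unadjusted p under 0.05.
Dnaja1: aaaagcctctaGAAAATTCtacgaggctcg
This shorter element is common. It stood in 16 of the 59 members with an entry (27.1%), in 15.1% of all promoter windows and in the windows of 14.2% of the tested genes, and every 3-unit element contains it.

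Dnajb1 (HSP40), the stress-inducible DNAJB partner of HSP70, was at 25.1, 23.5 and 27.2 CPM in wild-type males, 22.2, 13.8 and 17.2 in heterozygous males, 19.8, 14.2 and 19.9 in homozygous males and 19.6 in the female. All 6 males that carry S400D and the female were below the wild-type males. Fold changes on the log2 scale were -0.50 ± 0.18 (SE, adjusted p = 0.272) in homozygous and -0.52 ± 0.18 (SE, adjusted p = 0.972) in heterozygous against wild-type males. Leaving out single animals moved the first between -0.59 and -0.36, and without wild-type male 3 or homozygous male 2 its unadjusted p exceeded 0.05. Other J-domain genes of the HSP70 cycle, Dnaja2, Dnajb2, Dnajb4 and Dnajb6, had fold changes of -0.22 to -0.09 in homozygous against wild-type males.

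**Figure D4:**
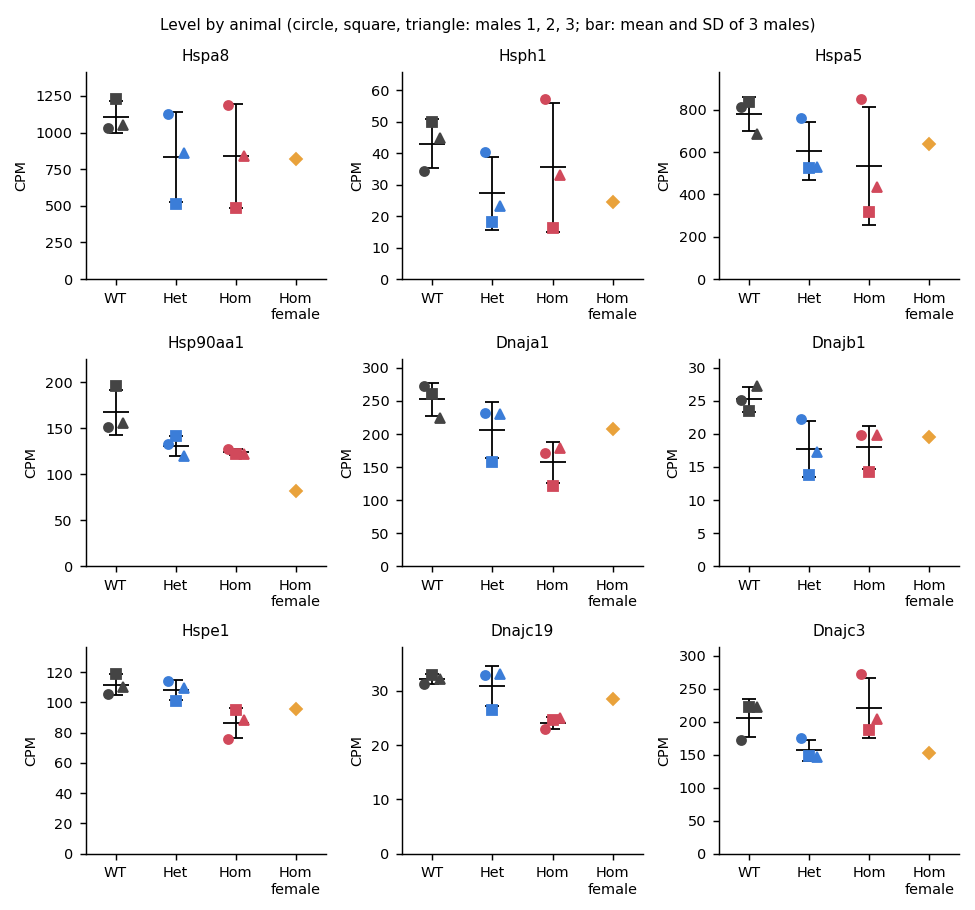
CPM of 9 chaperone genes by animal (circle, square and triangle: males 1, 2 and 3 of a genotype; diamond: the homozygous female; bars: mean and SD of 3 males; axes start at 0). Hspe1 and Dnajc19 are lower in all homozygous males than in the other males, Hsp90aa1 and Dnajb1 are lower in all males with S400D than in wild-type males, and Hspa8, Hsph1 and Hspa5 spread widely among males with S400D.

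Some members differed widely between animals of 1 genotype. The SD of log2(CPM + 0.5) within genotypes was highest for 6 members, at 0.757 for Hspa1b, 0.636 for Hsph1, 0.58 for Dnajb9, 0.509 for Hspa8, 0.505 for Hspb1 and 0.463 for Hspa5, while the median was 0.164 over the tested members and 0.205 over all tested genes. These 6 are the top of a ranked list, and they stood at percentiles 88.8 to 97.6 of all tested genes. Hsph1, the inducible HSP110, was at 34.5, 49.9 and 44.8 CPM in wild-type males, 40.4, 18.2 and 23.3 in heterozygous males, 57.3, 16.23 and 33.0 in homozygous males and 24.6 in the female. Heterozygous male 2 and homozygous male 2 were the lowest and homozygous male 1 the highest. Its log2 fold change was -0.29 ± 0.42 (SE, adjusted p = 0.763) in homozygous against wild-type males. Hspa1b was at 13.3, 8.996 and 4.64 CPM in wild-type males, 16.8, 4.61 and 11.4 in heterozygous males, 3.77, 3.04 and 7.57 in homozygous males and 2.28 in the female. Its values crossed between all groups, with -0.92 ± 0.54 (SE, adjusted p = 0.448). Hspa1a and Hspa1b are near-identical, and the reads were divided equally between 2 deposited copies of the Hspa1b transcript, so the division between these 2 genes is uncertain.

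The lowest and highest values were unevenly divided between the animals of each genotype. Heterozygous male 2 had the lowest CPM of its genotype in 38 of the 62 tested members (61.3%), beside 33.5% of all tested genes. Homozygous male 2 had the lowest of its genotype in 35 members (56.5%), beside 34.7% of all genes, and homozygous male 1 the highest in 29 (46.8%), beside 37.6%. Heterozygous male 1 had the highest of its genotype in 32 (51.6%, beside 36.1%) and wild-type male 2 in 29 (46.8%, beside 32.0%). Wild-type male 3 had the lowest of its genotype in 26 (41.9%, beside 33.4%). Of the 9 mitochondrial members 8 were lowest in heterozygous male 2. This animal is the heterozygote with the clock state of the homozygotes, whereas homozygous males 1 and 2 share that state. Its part in the low values was not tested. Members of 1 library share its scaling, so these counts are descriptions.

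Among the small heat shock protein genes, Hspb8 was at 131, 208 and 240.1 CPM in wild-type males, 154, 119 and 124 in heterozygous males, 196, 187 and 136 in homozygous males and 174 in the female. Heterozygous males were at the low end and overlapped wild-type male 1, with -0.55 ± 0.23 (SE, adjusted p = 0.972), and leaving out single animals moved this between -0.77 and -0.36. Hspb1, the actin-associated HSP27, was at 9.89, 12.5 and 13.9 CPM in wild-type males, 13.8, 24.3 and 7.55 in heterozygous males, 13.6, 15.6 and 18.5 in homozygous males and 5.59 in the female. Its CPM overlapped between all male genotypes, with 0.38 ± 0.35 (SE, adjusted p = 0.615) in homozygous against wild-type males. On the TPM scale Hspb1 was at 21.99, 23.5 and 29.8 in wild-type and 31.8, 37.2 and 41.1 in homozygous males, which did not overlap, and the heterozygous males (26.6, 51.8 and 17.2) overlapped both. Hspb6 was at 9.05, 12.6 and 13.7 CPM in homozygous and 10.4, 8.996 and 10.4 in wild-type males, which overlapped.

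Of the cytosolic DNAJC genes, 3 had an unadjusted p under 0.05 in a pairwise comparison. Dnajc12, a co-chaperone of the aromatic amino acid hydroxylases, was at 9.66, 14.7 and 10.3 CPM in wild-type males, 9.55, 11.5 and 9.50 in heterozygous males, 30.9, 11.3 and 15.9 in homozygous males and 13.1 in the female. Homozygous male 1 stood far above the rest, and the log2 fold change against wild type of 0.73 ± 0.32 (SE, adjusted p = 0.335) was 0.24 without that animal. Dnajc21, a factor of ribosome biogenesis, was at 22.8, 26.3 and 24.1 CPM in wild-type males, 20.2, 20.4 and 20.3 in heterozygous males, 34.5, 22.1 and 26.1 in homozygous males and 19.3 in the female. Homozygous males were above the heterozygous males, which lay close together, with 0.44 ± 0.14 (SE, adjusted p = 0.192), and without 1 animal at a time this was 0.26 to 0.57. Dnajc8, a protein associated with splicing factors, was at 22.3, 19.8 and 19.1 CPM in wild-type males, 23.9, 23.4 and 22.03 in heterozygous males, 16.9, 19.7 and 18.6 in homozygous males and 23.2 in the female. Homozygous males were below the heterozygous males with -0.33 ± 0.10 (SE, adjusted p = 0.175), and both overlapped the wild type.

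Among the members without an assigned compartment, Dnajc4 was at 8.79, 8.55 and 9.04 CPM in wild-type males, 8.37, 8.11 and 8.55 in heterozygous males, 5.11, 7.65 and 6.13 in homozygous males and 6.56 in the female. The homozygous males were below all other males, with -0.49 ± 0.16 (SE, adjusted p = 0.254) against wild type and -0.41 ± 0.16 (SE, adjusted p = 0.251) against heterozygotes. Dnajc18 was at 7.74, 10.2 and 7.70 CPM in wild-type males, 6.32, 8.16 and 7.44 in heterozygous males, 15.7, 8.70 and 9.79 in homozygous males and 7.30 in the female. Homozygous males were above the heterozygous males with 0.63 ± 0.23 (SE, adjusted p = 0.216), and without homozygous male 1 the value was 0.34. Dnajc22 and Dnajc25 had fold changes of 0.01 and -0.13 in homozygous against wild-type males.

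Cytosolic partners were given as a list of 18 co-chaperones (BAG proteins, HSP90 co-chaperones and others). In homozygous against wild-type males, 3 were lower and 0 higher at an unadjusted p under 0.05, with a median log2 fold change of -0.06, beside 0.00 over all genes, and 13 of 18 values negative. Of all genes 8.08% were lower, 6.82% higher and 49.3% negative. With library size alone 9 of the 18 were negative, beside 40.2% of all genes. Stip1 (HOP), which links HSP70 to HSP90, was at 66.1, 85.6 and 75.6 CPM in wild-type males, 72.1, 70.9 and 59.6 in heterozygous males, 69.0, 51.8 and 63.5 in homozygous males and 50.04 in the female. With overlapping groups it had a log2 fold change of -0.31 ± 0.14 (SE, adjusted p = 0.327). Stub1 (CHIP), the ubiquitin ligase that binds both chaperones, was at 51.2, 48.3 and 50.9 CPM in wild-type males, 56.1, 44.8 and 45.2 in heterozygous males, 42.1, 39.2 and 38.7 in homozygous males and 47.8 in the female. All homozygous males were below all other males, with -0.34 ± 0.10 (SE, adjusted p = 0.227) against wild type. The low-level Bag2, an HSP70 exchange factor, had -0.93 ± 0.36 (SE, adjusted p = 0.291) at 0.638 to 2.505 CPM over the males. Against heterozygotes, Bag2 and Stub1 were lower and Bag4, St13 and Fkbp5 higher, and in heterozygous against wild-type males 0 of the 18 had such a p. Of all genes 8.92% were lower and 8.25% higher in the first of these comparisons, and 4.19% had such a p in the second.

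Hsf1, the main activator of the heat shock genes, was at 15.7, 19.4 and 16.6 CPM in wild-type males, 21.8, 16.9 and 14.6 in heterozygous males, 19.7, 14.4 and 17.7 in homozygous males and 17.34 in the female. Its groups overlapped with a log2 fold change of -0.00 ± 0.17 in homozygous against wild-type males. Hsbp1, which binds and restrains HSF1, was at 44.0, 39.4 and 40.01 CPM in wild-type males, 38.6, 37.0 and 42.4 in heterozygous males, 31.7, 34.5 and 33.3 in homozygous males and 40.1 in the female. Homozygous males were below the other males, with -0.32 ± 0.09 (SE, adjusted p = 0.220). Of the 8 subunits of TRiC, the cytosolic chaperonin that folds actin and tubulin, Cct7 alone had an unadjusted p under 0.05 in homozygous against wild-type males, at -0.34 ± 0.09 (SE, adjusted p = 0.206). At this threshold 8.08% of all genes were lower and 6.82% higher in that comparison. The subunits' median was -0.11 in that comparison, beside 0.00 over all genes, and -0.05 with library size alone, beside 0.06.

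The cold-inducible RNA-binding protein genes Cirbp and Rbm3 were followed because temperature moves them opposite to heat shock genes. Rbm3 was at 42.3, 35.5 and 48.0 CPM in wild-type males, 43.0, 36.4 and 40.98 in heterozygous males, 26.1, 28.0 and 23.9 in homozygous males and 58.4 in the female. Homozygous males were below all other males and the homozygous female was above all animals, with -0.70 ± 0.13 (SE, adjusted p = 0.147) in homozygous against wild-type males. Cirbp was at 19.1, 19.5 and 20.5 CPM in wild-type males, 27.5, 34.9 and 22.03 in heterozygous males, 23.7, 51.6 and 26.7 in homozygous males and 38.3 in the female. Homozygous males were above the wild-type males with 0.78 ± 0.28 (SE, adjusted p = 0.272), and the heterozygotes were above the wild-type males too and overlapped the homozygotes.

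In the ER, Hspa5 was at 811, 838 and 688 CPM in wild-type males, 763, 527 and 528 in heterozygous males, 851, 318 and 437 in homozygous males and 639 in the female. Homozygous males 2 and 3 and heterozygous males 2 and 3 were below all wild-type males, and homozygous male 1 was above them. The log2 fold change was -0.56 ± 0.32 (SE, adjusted p = 0.437) in homozygous and -0.37 ± 0.32 (SE, adjusted p = 0.972) in heterozygous against wild-type males. Hsp90b1 was at 738, 806 and 795 CPM in wild-type males, 784, 668 and 669 in heterozygous males, 709, 517 and 558 in homozygous males and 709 in the female. Homozygous males were below the wild-type males, with -0.40 ± 0.14 (SE, adjusted p = 0.260), and both overlapped the heterozygotes. Leaving out single animals moved this value between -0.54 and -0.32, and its unadjusted p exceeded 0.05 without wild-type male 2 or 3 or homozygous male 2 or 3.

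Dnajc3 (p58IPK), a J-domain protein of the ER lumen that is induced with Hspa5, was at 172, 223 and 222 CPM in wild-type males, 175, 148 and 146 in heterozygous males, 273, 187 and 205 in homozygous males and 152 in the female. Homozygous males were above the heterozygous males, with 0.50 ± 0.16 (SE, adjusted p = 0.187), and wild-type males overlapped both. The log2 fold change in heterozygous against wild-type males was -0.40 ± 0.16 (SE, adjusted p = 0.972). Hspa5, Hsp90b1 and Dnajc3 were the members whose promoter window held the ER stress response element, searched on both strands as CCAAT and CCACG with 9 bases of any kind between. That is 3 of the 11 ER members with an entry (27.3%), beside 0.119% of all promoter windows and 0.19% of the tested genes. They are shown because they carry the same element. Sequences are RefSeq, GRCm38.p6, 5′ to 3′ on the gene's strand, with the element in capitals. They lie at chr2:34772020-34772049 (plus strand, 70 to 41 bases before the start), chr10:86705525-86705664 (minus strand, 220 to 81 bases before) and chr14:118937812-118937891 (plus strand, 120 to 41 bases before).
Hspa5: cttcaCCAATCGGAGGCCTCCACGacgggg
Hsp90b1: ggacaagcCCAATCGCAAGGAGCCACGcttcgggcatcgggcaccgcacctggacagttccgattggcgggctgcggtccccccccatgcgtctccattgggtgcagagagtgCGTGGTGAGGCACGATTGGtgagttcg
Dnajc3: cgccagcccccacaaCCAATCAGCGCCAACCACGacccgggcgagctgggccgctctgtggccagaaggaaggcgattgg
The Hsp90b1 stretch holds the element on each strand. In homozygous against wild-type males the 3 genes had log2 fold changes of -0.56, -0.40 and 0.09, and in heterozygous against wild-type males, which share the wild-type animals, of -0.37, -0.15 and -0.40. Differences between the genes were not tested.

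The CPM ratio of Hspa5 to Hsp90b1 was 1.10, 1.04 and 0.865 in wild-type, 0.973, 0.789 and 0.789 in heterozygous and 1.20, 0.615 and 0.783 in homozygous males. It was lowest in homozygous male 2 and highest in homozygous male 1. Dnajb11 (ERdj3), a J-domain partner of BiP, was at 98.9, 123 and 109.7 CPM in wild-type males, 104, 85.3 and 86.0 in heterozygous males, 131, 75.2 and 88.8 in homozygous males and 77.1 in the female. Homozygous male 1 was the highest and homozygous male 2 the lowest of the males. Dnajb9 (ERdj4), which delivers BiP to the stress sensor IRE1, was at 58.9, 40.5 and 32.3 CPM in wild-type males, 66.8, 25.7 and 44.7 in heterozygous males, 57.7, 25.0 and 37.8 in homozygous males and 65.0 in the female. It varied by more than 2-fold within each S400D genotype, in the same order of animals as Hspa5 among the homozygotes.

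Dnajc1 (ERdj1), a J-domain protein of the ER membrane, was at 26.7, 27.3 and 24.6 CPM in wild-type males, 26.4, 25.7 and 25.2 in heterozygous males, 32.6, 28.8 and 33.9 in homozygous males and 27.2 in the female. Homozygous males were above all other males, with 0.27 ± 0.09 (SE, adjusted p = 0.257) against wild type and 0.30 ± 0.09 (SE, adjusted p = 0.162) against heterozygotes. The transcript is long, at 4886 bases. Against wild type its unadjusted p exceeded 0.05 with the length trend removed, with the clock index, and without homozygous male 3 or wild-type male 3. Against heterozygotes this was so with limma and with the clock index. Of the 5 ER members of the DNAJC family all 5 had positive fold changes in homozygous against wild-type males, from 0.04 to 0.27, also under the other scalings, which reuse the same counts. Of all genes 49.3% were negative there, and 40.2% with library size alone. All 5 have long transcripts, from 3641 to 4917 bases, beside a median of 2628 over the tested genes. These scalings do not remove a length trend, and the part of length in the shared sign was not tested. Among the 4 ER members of the DNAJB family 3 were negative and 1 positive. Of the 5, Dnajc1 alone had an unadjusted p under 0.05, beside 14.9% of all genes. The ER partners, a list of 12 genes for exchange factors, lectin chaperones and disulfide isomerases, had negative fold changes in 12 of 12 in homozygous and 11 of 12 in heterozygous against wild-type males, which share the wild-type animals, beside 49.3% and 48.4% of all genes. Their median was -0.25 in each, beside 0.00 and 0.01 over all genes. With library size alone 10 and 11 of the 12 were negative, beside 40.2% and 31.1% of all genes. Of the 12, Sil1 and Calr were lower at an unadjusted p under 0.05 in homozygous against wild-type males, beside 8.08% of all genes. Sil1, an exchange factor of BiP, was at 69.2, 90.8 and 88.6 CPM in wild-type males, 85.8, 75.0 and 63.2 in heterozygous males, 52.8, 66.1 and 60.1 in homozygous males and 62.2 in the female. Homozygous males were below the wild-type males with -0.48 ± 0.15 (SE, adjusted p = 0.237). Calr (calreticulin), a lectin chaperone, had -0.32 ± 0.12 (SE, adjusted p = 0.279). The exchange factor Hyou1 followed the order of Hspa5 among homozygous males, at 249, 63.2 and 97.4 CPM.

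**Figure D5:**
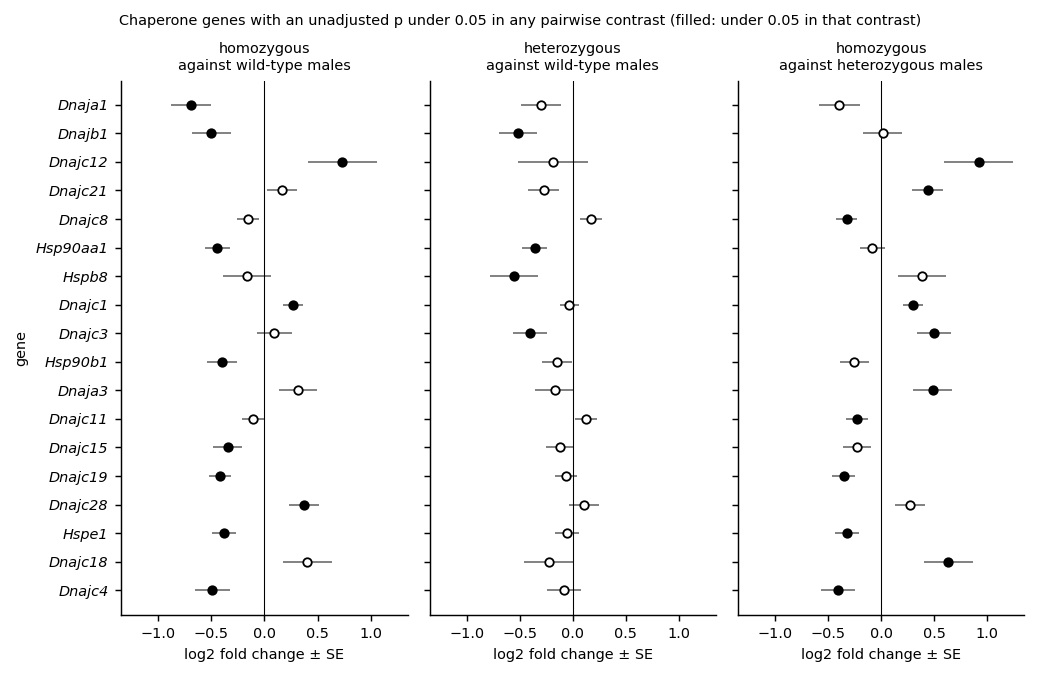
Log2 fold change with its SE (horizontal bars) for the 18 chaperone genes with an unadjusted p under 0.05 in a pairwise comparison of male genotypes, by compartment from cytosol at the top to unassigned at the bottom (filled points: under 0.05 in that comparison). None passes an adjusted p of 0.05 with edgeR. Dnajb1 and Hsp90aa1 are filled in both comparisons with wild type, and Dnajc19, Hspe1, Dnajc4, Dnajc1 and Dnajc12 in both comparisons of homozygotes.

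Over the tested members together, the homozygous female lay within the range of the homozygous males or outside it without one direction. It had the lowest value of the 4 homozygous animals in 20 of the 62 tested members (32.3%, beside 27.1% of all genes) and the highest in 15 (24.2%, beside 27.6%). By compartment it was lowest in 2 and highest in 6 of the 9 mitochondrial members. These counts were 13 and 7 of the 37 cytosolic members and 3 and 1 of the 12 ER members. Hsp90aa1 was at 82.3 CPM in the female against 128, 122 and 122 in homozygous males. Dnaja1 was at 208 CPM, above the homozygous males. Dnajc30 was at 30.5 CPM against 19.3, 21.2 and 17.4. The female shared the high ratio of Hspd1 to Hspe1 and the long mean transcript length (1453 bases) of the homozygous males but had the clock state of the wild-type males.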

How the data were processed

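RNA of 10 livers was sequenced after selection on oligo(dT) beads, per the labels' protocols. The deposited table holds expected counts, FPKM and TPM per transcript as the authors computed them, per the file headers. HISAT, Bowtie2 and the build GRCm38.p6 are named in the submitters' processing notes; for their versions and roles and for the counting program the entry is: not given in the sources. The deposited expected counts (estimated counts per transcript, not normalised) were summed by gene and rounded. The authors' TPM served to compare levels between genes, and the authors' FPKM served alternative fits. Whether counting used strand is not stated, so overlapping genes are uncertain.

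Genes were tested with edgeR 4.0.16 (R 4.3.3; quasi-likelihood, TMM factors, edgeR's filter on low counts by group) over the 9 males with genotype as the only term, which left 6 residual degrees of freedom, and the procedure was tested on simulated data. P-values were adjusted by Benjamini-Hochberg over 12427 genes. Levels are CPM with TMM factors. Replicates are numbered in the labels with no word on litter or batch, and p-values then measure only the spread between these samples, which may be technical. Precision is limited by 3 animals per group. The genes named are those with an unadjusted p under 0.05 in any of the 4 tests, the 3 most abundant per compartment, and partner genes from fixed lists; Hspd1 over Hspe1, Hsf1, Hyou1, Hsph1, Hspa1b, Dnajb9 and other members named outside this rule were chosen after their values were seen. The members and lists were chosen with earlier results of these data known.

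Promoter windows came from RefSeq (GRCm38.p6) and matched 59 of the 73 members; the others, Hsp90aa1, Hsp90ab1, Hspa8 and Hspa9 among them, have no window here. Alternatives were DESeq2 1.42.0, its size factors, library size alone, no filter, all 10 samples in the fit, a block for the replicate number, limma 3.58.1 on log2(FPKM + 1) or log2(FPKM + 0.1), and omission of each male in turn. A clock index as covariate and removal of a length trend were added after seeing the data.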

Additional observations from a re-analysis of the deposited data

How the results depend on the processing

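The 26 fold changes of members with an unadjusted p under 0.05 were recomputed under 19 alternatives, which gave 494 values. None reversed in sign, 392 kept a p under 0.05 and 102 did not. With the clock index as covariate 5 of the 26 kept it and 21 did not. The 26 were picked by their p in these same animals, which the alternatives reuse, so the kept signs are no independent check. Counts of members at an adjusted p under 0.05 were 0 with edgeR and limma in every alternative; DESeq2 gave 2 in homozygous against wild-type males and 1 in the joint test. At an unadjusted p under 0.05, the 11 members in homozygous against wild-type males became 1 with the clock index as covariate, and 5 to 13 when single males were left out (5 without wild-type male 3). The 4 in heterozygous against wild-type males became 2 with library size alone, with limma at either pseudocount and with the clock index, and 1 to 6 without single males (1 without heterozygous male 2, wild-type male 2 or wild-type male 3; without heterozygous male 3 the 1 was Hspb1, higher and not among the 4). The 11 in homozygous against heterozygous males became 2 with the clock index and 5 to 12 without single males (5 without heterozygous male 1). The 11 in the joint test became 2 with the clock index, 5 with the length trend removed and 6 to 14 without single males (6 without wild-type male 3, 7 without heterozygous or homozygous male 3). The counts over all genes moved as well. With the clock index 465 of all genes had such a p in homozygous against wild-type males, instead of 1852. In heterozygous against wild-type males 442 did, instead of 521, in homozygous against heterozygous males 1043, instead of 2134, and in the joint test 668, instead of 1750. Homozygous against wild-type males gave 1378 of 12603 genes without wild-type male 3. Homozygous against heterozygous males gave 1511 of 12615 without heterozygous male 1. The cause was not tested.

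Replicate numbers did not pair the animals: same-numbered males of different genotypes had correlations of their deviations from -0.438 to 0.195. Differently numbered males had correlations from -0.351 to 0.445, the highest between heterozygous male 3 and wild-type male 1. What these animals share was not tested. With the replicate number as a block, the unadjusted counts were 2 in heterozygous against wild-type males and 6 in the joint test, and those of the other 2 comparisons stayed within 1.5 times. Over all genes the block gave 417 instead of 521 in the first and 1390 instead of 1750 in the joint test.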

Other observations

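Dnajc7, a cytosolic co-chaperone that binds both HSP70 and HSP90, was divided between several deposited transcripts. A predicted transcript of Dnajc7 took 29.6%, 22.4% and 28.9% of the gene's TPM in wild-type males, 42.6%, 25.2% and 19.3% in heterozygous males, 14.1%, 14.9% and 4.78% in homozygous males and 17.0% in the female. All 4 homozygous animals were below the 6 others. The share was noticed after its values were seen, rests on the authors' estimates for overlapping transcripts, and was not tested.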
